A study of Mus musculus with 36 samples.

Results

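Lungs of untreated A/J mice were compared with lungs of untreated C3H mice at the 2 earliest sampling times of the study, weeks 0 and 3. Every array labelled untreated at these weeks was taken, which gave 8 of the 36 arrays of the series. The A/J group held 4 arrays, 2 of week 0 and 2 of week 3, and the C3H group likewise held 4 arrays, 2 of each week. A/J is an inbred mouse strain known for developing lung tumours readily, and C3H is an inbred strain that is less prone to them. The other arrays came from later weeks or from mice given NNK, a tobacco-specific nitrosamine injected at 100 mg/kg, and the series followed the lung in the weeks after exposure and before tumours had matured. None of the 8 lungs compared here was labelled as having received NNK, and the weeks count the time after the exposure of the treated mice. All animals were kept in one facility under ordinary cycles of light and dark with food and water. The labels give neither the age, the sex, the C3H substrain nor the time of day at which the lungs were taken. They do not say whether arrays of one group came from separate mice, so the p-values measure only the spread between these arrays, which may be technical.

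Total RNA of lung was hybridised to Affymetrix mouse gene arrays. Levels below are log2 of the deposited intensity plus 16 after quantile normalization over the 36 arrays, and a difference is A/J minus C3H on this scale with its standard error (SE) and with week as a block. A gene was called where limma's p-value after Benjamini-Hochberg adjustment over the 14953 genes tested was under 0.05. The 4 values given for each strain are those of week 0 array 1, week 0 array 2, week 3 array 1 and week 3 array 2. In bulk tissue, fewer cells of a type and less RNA per cell cannot be told apart.

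The deposited medians were 339, 347, 335 and 295 in the A/J arrays and 325, 320, 300 and 312 in the C3H arrays, and the deposited 25th percentiles were 159, 161, 155 and 116 in A/J and 147, 139, 123 and 130 in C3H. The A/J partners of a week correlated at 0.9864 (week 0) and 0.9786 (week 3) over the tested genes, and the C3H partners at 0.9938 and 0.9944. A/J week 0 array 2 and A/J week 3 array 2 lay at least 2-fold above all other arrays in 35 and 15 of the tested genes, while no other array did so in more than 1. Counts below were therefore also taken without each of them and without both. The lung markers Sftpc and Sftpb (surfactant proteins of alveolar type 2 cells), Scgb1a1 (club cells), Ager (alveolar type 1 cells) and Cdh5 (endothelium) were between 13.15 and 14.05 in all 8 arrays, and none of the 5 was called. The ciliated cell regulator Foxj1 averaged 9.16 in A/J and 8.94 in C3H, a difference of 0.22 ± 0.08 that was not called (limma adjusted p = 0.0848).

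Of the genes tested, 3981 (26.6%) were called between the strains, 919 of them higher in A/J (6.15% of all tested) and 3062 lower (20.5%). The median called difference was 0.325 in size, and the median of all tested genes was -0.07. At least 2-fold differences were called for 45 genes higher in A/J (0.301%) and 89 lower (0.595%). The excess of lower over higher calls depended on the scaling: 23.1% of calls were higher in A/J as given, 34.5% without quantile normalization, and 48.9% (1808 higher, 1893 lower) when each array was centred on the median of its tested genes, a scaling chosen after seeing the data. The count without 1 array was 2589 without C3H week 3 array 2, 2628 without A/J week 0 array 1 and 2634 without C3H week 0 array 2, and up to 5624 without A/J week 3 array 2. In 4062 genes (27.2%) the 4 A/J values lay wholly above or wholly below the 4 C3H values.

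Clock genes of the repressor phase were lower in A/J without exception. In the circadian clock the transcription factors CLOCK and ARNTL (also called BMAL1) bind E-box sequences and switch on the Per and Cry genes, whose proteins then repress them, and the cycle takes about a day. Nr1d1 and Nr1d2, which encode REV-ERB repressors, and the PAR-bZIP factors Dbp, Tef and Hlf are switched on in the same phase as the Per genes, while Arntl is repressed by REV-ERB through ROR elements and so peaks in the opposite phase. The lung has such a clock of its own, strong in the club cells of the airways, and it is set by the time of day and by glucocorticoids. All 12 genes of the repressor-phase list, the Per genes and those that cycle with them, were called lower in A/J, against 20.5% of all tested genes called lower, and their median difference was -1.24 against the median of -0.07 over all genes. The count was 12 of 12 without any 1 array and after centring on the tested genes (median -1.16). The mean level of these genes was 10.08, 10.01, 9.362 and 9.593 in A/J, against 11.01, 11.05, 10.87 and 10.91 in C3H, so it was lowest in the A/J arrays of week 3.

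Promoter sequences of clock genes were read because the repressor-phase genes moved together and Arntl moved the other way. The 6 printed below all hold a motif that was searched for. Each runs from 250 bases before to 50 bases after a transcript start annotated by RefSeq on GRCm38.p6, written on the strand of the gene. Capitals mark the E-box CACGTG, the D-box TTATGTAA (the site of Dbp, Tef, Hlf and Nfil3) or the ROR element TAGGTCA, each searched on both strands. The windows are chr11:69098699-69098998 (+) for Per1, chr4:151044616-151044915 (-) for Per3, chr3:95882179-95882478 (-) for Ciart, chr6:145865371-145865670 (-) for Bhlhe41, chr15:81802423-81802722 (+) for Tef and chr7:113207261-113207560 (+) for Arntl. Where a gene had several annotated starts, a window that holds a motif was printed, and the other windows of Per1 and Arntl hold none of the 3 motifs. The windows of the repressor-phase genes Cry2, Dbp, Hlf, Nr1d1 and Nr1d2 hold none of them either and are not printed.
Per1: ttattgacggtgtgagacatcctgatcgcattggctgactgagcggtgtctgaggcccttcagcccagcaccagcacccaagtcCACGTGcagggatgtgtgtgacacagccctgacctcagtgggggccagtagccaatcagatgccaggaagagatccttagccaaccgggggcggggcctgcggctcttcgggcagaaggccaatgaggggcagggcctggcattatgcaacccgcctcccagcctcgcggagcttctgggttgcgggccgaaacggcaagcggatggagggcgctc
Per3: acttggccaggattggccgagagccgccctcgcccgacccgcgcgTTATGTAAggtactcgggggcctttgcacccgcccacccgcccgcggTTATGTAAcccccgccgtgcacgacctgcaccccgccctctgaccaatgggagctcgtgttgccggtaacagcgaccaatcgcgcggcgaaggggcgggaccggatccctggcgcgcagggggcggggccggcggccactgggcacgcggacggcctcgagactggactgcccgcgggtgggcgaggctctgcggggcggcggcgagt
Ciart: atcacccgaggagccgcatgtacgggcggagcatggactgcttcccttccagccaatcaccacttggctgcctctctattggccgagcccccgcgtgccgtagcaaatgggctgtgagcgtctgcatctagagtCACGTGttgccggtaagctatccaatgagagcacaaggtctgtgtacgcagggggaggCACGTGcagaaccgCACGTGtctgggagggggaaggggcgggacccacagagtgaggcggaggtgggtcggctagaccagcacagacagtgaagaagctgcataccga
Bhlhe41: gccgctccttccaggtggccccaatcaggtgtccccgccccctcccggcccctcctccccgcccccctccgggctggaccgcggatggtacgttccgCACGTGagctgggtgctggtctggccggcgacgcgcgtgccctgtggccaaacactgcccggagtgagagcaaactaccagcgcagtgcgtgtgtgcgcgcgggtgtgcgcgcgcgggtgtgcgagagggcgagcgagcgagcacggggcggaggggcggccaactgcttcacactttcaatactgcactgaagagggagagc
Tef: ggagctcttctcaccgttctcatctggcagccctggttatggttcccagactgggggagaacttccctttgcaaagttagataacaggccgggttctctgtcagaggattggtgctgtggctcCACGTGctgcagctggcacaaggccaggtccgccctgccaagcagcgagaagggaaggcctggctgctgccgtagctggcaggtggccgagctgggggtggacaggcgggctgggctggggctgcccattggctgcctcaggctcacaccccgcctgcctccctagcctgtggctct
Arntl: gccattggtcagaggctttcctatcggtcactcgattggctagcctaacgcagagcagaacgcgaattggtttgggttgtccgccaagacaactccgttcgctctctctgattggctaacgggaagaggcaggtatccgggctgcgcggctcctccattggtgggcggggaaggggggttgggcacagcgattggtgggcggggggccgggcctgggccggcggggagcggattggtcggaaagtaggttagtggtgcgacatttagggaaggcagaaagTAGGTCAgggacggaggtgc
The E-box was present in 2349 of 32851 promoter windows (7.15%), and in 4 of the 10 repressor-phase genes that had a window, Per1, Ciart, Bhlhe41 and Tef, with 3 copies in Ciart. It was present in Cry1 among the 5 genes of the opposite phase that had a window, and in 8.09% of all genes with a window. The D-box was present in 308 windows (0.938%) and 2 times in Per3. The ROR element was present in 856 windows (2.61%), in Arntl and Nfil3 among the same 5 genes, and in 0 of the 10 repressor-phase genes. These matches describe the letters of the windows only.

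Per1, a core repressor of the clock, had levels of 9.95, 9.61, 8.94 and 9.44 in A/J, against 11.13, 11.41, 10.93 and 11.10 in C3H. Every A/J array was below every C3H array, and Per1 was 3.16-fold lower in A/J (-1.66 ± 0.13, adjusted p = 6.23e-05). Per2, its partner repressor, was at 9.58, 9.52, 8.44 and 8.76 in A/J and 10.68, 10.76, 10.44 and 10.65 in C3H (-1.56 ± 0.15, adjusted p = 0.000154), and the A/J arrays of week 3 were the lowest. Per3, the third gene of the family, was at 9.88, 9.76, 9.00 and 9.17 in A/J and 10.63, 10.72, 10.43 and 10.55 in C3H (-1.13 ± 0.11, adjusted p = 0.000189). The 3 Per genes thus shared the order of the arrays, with A/J week 3 below A/J week 0 and both below C3H.

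Dbp, a PAR-bZIP activator of output genes and one of the most strongly cycling transcripts of most tissues, was at 11.07, 10.999, 9.37 and 9.49 in A/J and 12.08, 12.17, 11.95 and 11.91 in C3H. The groups did not overlap, the difference was -1.80 ± 0.23, adjusted p = 0.00083, and it was -1.09 at week 0 and -2.50 at week 3. Dbp was 1 of 2 genes (0.0134%) whose strain difference changed with week in limma's interaction test (-1.42 ± 0.12, adjusted p = 0.0101), though no gene passed that test without A/J week 0 array 2, without C3H week 0 array 1 or without C3H week 0 array 2. Hlf, its paralog, was at 9.41, 9.19, 8.46 and 8.46 in A/J and 10.65, 10.72, 10.31 and 10.57 in C3H (-1.68 ± 0.12, adjusted p = 3.53e-05), and the third paralog, Tef, differed by -0.82 (adjusted p = 0.000514). The levels of Hlf were again lowest in both A/J arrays of week 3.

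Bhlhe41 and Bhlhe40 encode the DEC repressors, which bind the same E-boxes as CLOCK and ARNTL. Bhlhe41 was at 8.27, 8.36, 7.95 and 8.24 in A/J and 9.62, 9.57, 9.79 and 9.59 in C3H (-1.44 ± 0.09, adjusted p = 1.79e-05), and Bhlhe40 differed by -1.15 ± 0.11 (adjusted p = 0.000185). Ciart, a further repressor of CLOCK and ARNTL, was at 8.92, 9.02, 9.05 and 9.12 in A/J and 10.55, 10.29, 10.32 and 10.29 in C3H (-1.33 ± 0.08, adjusted p = 9.51e-06), and its other probe set differed by -1.53. In the A/J arrays Ciart lay between 8.92 and 9.12, without the low week 3 values of the Per genes. The REV-ERB gene Nr1d1 was at 12.62, 12.67, 11.94 and 12.25 in A/J and 13.11, 13.22, 12.97 and 13.01 in C3H (-0.71 ± 0.10, adjusted p = 0.000952), and Nr1d2 differed by -0.69 (adjusted p = 0.000938). Cry2, a cryptochrome repressor, had the smallest of the 12 differences, -0.42 ± 0.08 (adjusted p = 0.0054).

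Of the 4 genes of the opposite phase that were tested, Arntl and Clock were called higher in A/J, Cry1 was called lower, and Nfil3 was not called. Arntl was at 8.75, 8.64, 9.19 and 9.96 in A/J and 7.70, 7.90, 8.04 and 7.89 in C3H, with every A/J array above every C3H array (1.25 ± 0.18, adjusted p = 0.00139, 2.38-fold). Clock, its dimer partner, varies little over the day in most tissues and was at 11.07, 11.12, 11.22 and 11.20 in A/J and 10.94, 10.81, 10.93 and 10.98 in C3H (0.24 ± 0.05, adjusted p = 0.0127). The difference of Cry1 was -0.26 (adjusted p = 0.0127). The call was lost without quantile normalization (adjusted p = 0.0969) and after centring on the tested genes. Nfil3, a repressor at D-boxes, was at 6.93, 7.18, 7.56 and 8.43 in A/J and 7.49, 7.53, 7.54 and 7.46 in C3H, so that its values in A/J spanned those in C3H. Expression of Npas2 was not analysed here, only its promoter window. Of 9 casein kinase and ubiquitin ligase genes of the clock that were tested, 1 was lower in A/J and 0 were higher. Against 20.5% of all tested genes lower and 6.15% higher, 6 of the 10 clock output genes tested were lower in A/J and 1 was higher. They included Usp2, a deubiquitinase (-1.20, adjusted p = 0.000153), Wee1, a kinase that holds back mitosis (-0.84, adjusted p = 5.54e-05), the tetraspanin Tspan4 (-0.81, adjusted p = 0.00182) and Alas1, the first enzyme of haem synthesis (-0.36, adjusted p = 0.00282).

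**Figure D1:**
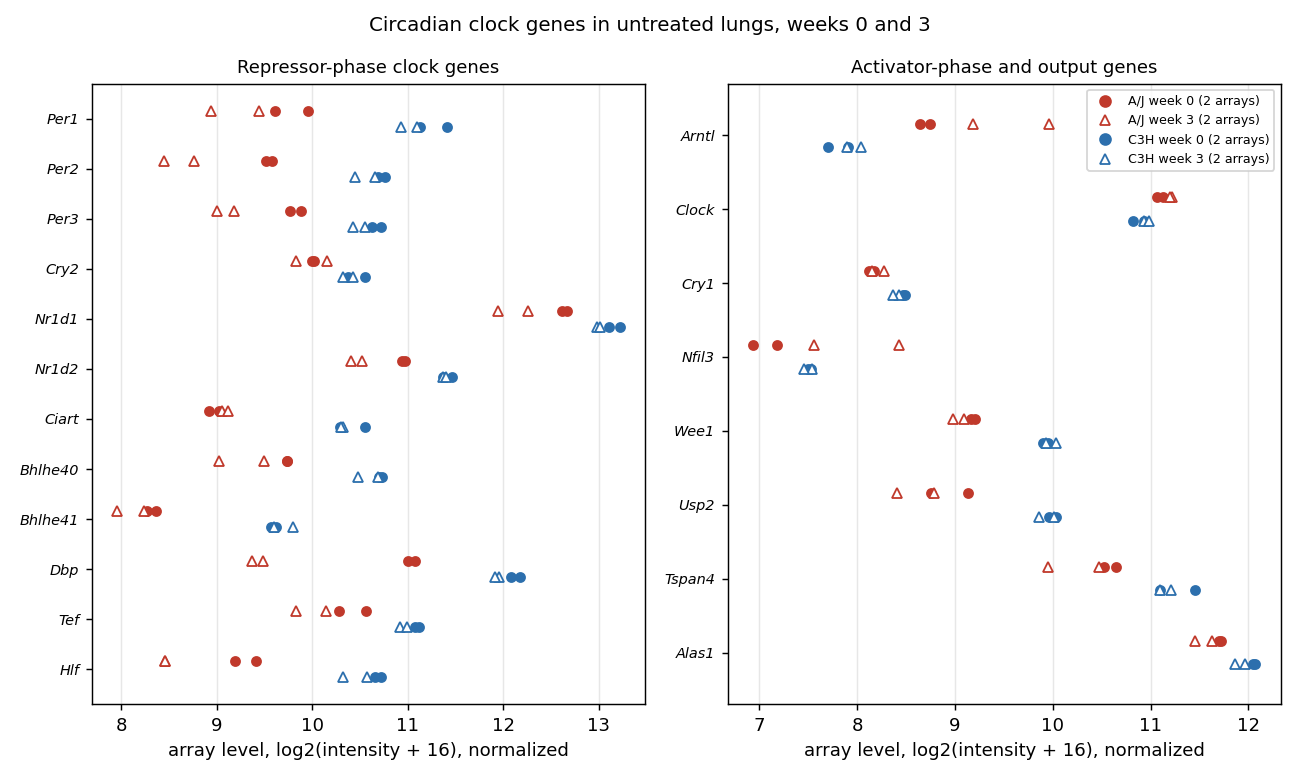
Levels of clock genes (log2 of intensity plus 16) in each of the 8 arrays, drawn for each gene with A/J above C3H, week 0 as filled circles and week 3 as open triangles. Dbp lies between 9.37 and 11.07 in A/J and between 11.91 and 12.17 in C3H, while Arntl lies above C3H in every A/J array.

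The later weeks served as a set of arrays that shared none with the 8. At weeks 6 to 12, with 6 untreated arrays per strain, 6621 genes (44.3%) were called between the strains. Of the 3981 genes called at weeks 0 and 3, 2967 were called in the same direction there, which is 74.5% of the earlier and 44.8% of the later calls. For clock genes the later values differed. At weeks 6 to 12 Per1 was between 11.06 and 11.68 in A/J and between 10.99 and 11.52 in C3H, a difference of 0.02, and Arntl was between 7.65 and 8.41 in A/J and between 7.52 and 7.77 in C3H, a difference of 0.26 (adjusted p = 0.0502). The strain difference of weeks 0 and 3 minus that of weeks 6 to 12 was tested directly and was called for 211 genes (1.41%). All 12 repressor-phase genes were among its 155 negative calls (1.04% of all tested), with -1.68 ± 0.17 for Per1 (adjusted p = 0.00016), -1.60 ± 0.12 for Dbp (adjusted p = 1.11e-05) and -1.48 for Bhlhe41 (adjusted p = 2.65e-05). Arntl was among the 56 positive calls (0.375%), at 0.99 ± 0.18 (adjusted p = 0.014). The split depended on the scaling, with 77 negative and 76 positive calls without quantile normalization and 127 and 124 after centring. Part of the early difference was still present later in some of these genes, with Hlf at -0.51 (adjusted p = 2.4e-05), Bhlhe40 at -0.50 (adjusted p = 5.36e-05) and Per2 at -0.46 (adjusted p = 0.00209). The count of 211 was 140 without A/J week 0 array 2, 87 without C3H week 0 array 2, 78 without C3H week 3 array 1 and 669 without A/J week 3 array 2. Since the labels give no time of day, strain and hour of collection cannot be told apart.

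**Figure D2:**
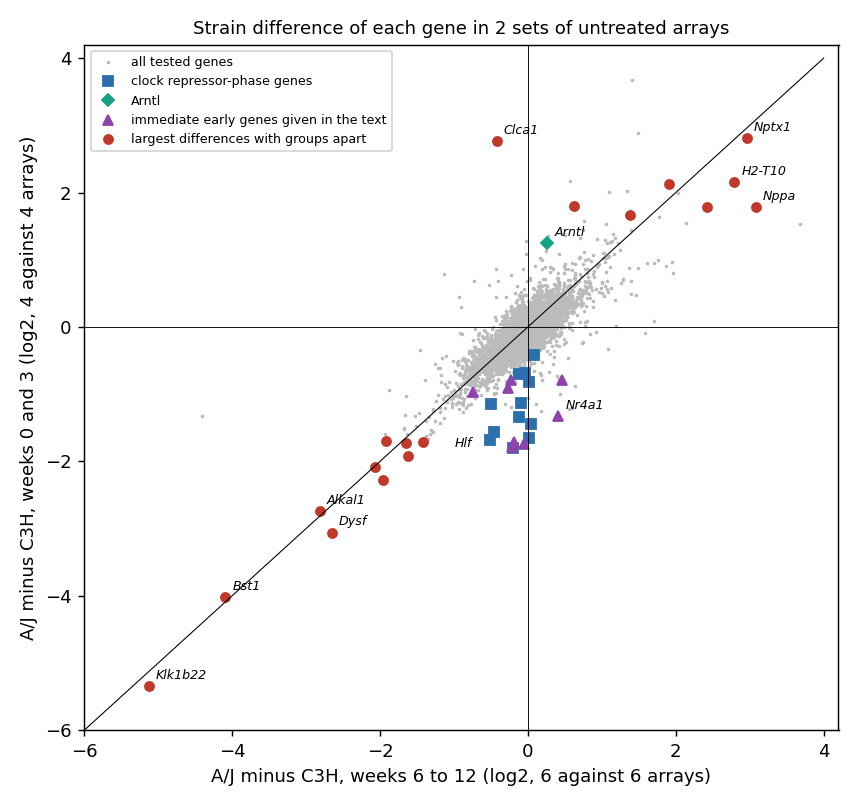
Strain difference (A/J minus C3H, log2) of each tested gene at weeks 0 and 3 on the vertical axis against the same at weeks 6 to 12 on the horizontal axis, with clock genes, immediate early genes and the largest differences marked. The repressor-phase clock genes lie below the diagonal at later differences between -0.51 and 0.09, whereas Klk1b22, Bst1 and Nptx1 lie close to it.

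Immediate early genes, which are switched on within minutes by growth factors, stress or handling of the tissue, were lower in A/J as well. Of the 26 tested, 18 were lower and 0 higher (median -0.69), against 20.5% lower and 6.15% higher of all tested genes. At weeks 6 to 12, 3 were lower and 3 higher, against 26.5% lower and 17.7% higher of all tested genes, and 7 of the 26 passed the test of early minus later difference. Egr1, a zinc finger factor, was at 9.19, 9.63, 10.24 and 11.05 in A/J and 11.64, 12.01, 12.11 and 11.50 in C3H, with no overlap (-1.79 ± 0.28, adjusted p = 0.00207). Fosb, a subunit of the AP-1 factor, was at 7.49, 7.64, 8.76 and 9.46 in A/J and 9.48, 10.09, 10.71 and 9.90 in C3H (-1.71 ± 0.26, adjusted p = 0.00197). Fos, another subunit, spanned a wider range in A/J, at 8.08, 7.31, 9.95 and 10.67 against 10.31, 10.78, 11.04 and 10.84 in C3H, and the groups overlapped (-1.74 ± 0.41, adjusted p = 0.0128, and not called with trended variance moderation or without the week term). Within A/J these 3 genes were lower in the arrays of week 0 than in those of week 3, the reverse of the order of the Per genes. The orphan nuclear receptor Nr4a1 was at 9.27, 9.34, 10.34 and 11.45 in A/J and 11.14, 11.63, 11.63 and 11.30 in C3H, with overlap through A/J week 3 array 2 (-1.32 ± 0.32, adjusted p = 0.0147). Its relative Nr4a2 differed by -0.91 and Egr2 by -0.97 (adjusted p = 0.000841 and 0.002). Ccn2, a matricellular growth factor target, was at 11.61, 11.55, 11.68 and 11.73 in A/J and 12.21, 12.60, 12.34 and 12.58 in C3H (-0.79 ± 0.09, adjusted p = 0.000431), and it varied little among the A/J arrays. The smooth muscle miRNA loci Mir143 and Mir145a, which are not on that list, differed by -1.21 and -1.21 with overlapping groups (adjusted p = 0.0121 and 0.0099). Nr4a1, Nr4a2, Btg2 (an antiproliferative early response gene), Mir143 and Mir145a passed that test, at -1.74, -0.64, -1.25, -1.80 and -1.77. Egr1, Fos and Fosb did not pass it (-1.58, -1.69 and -1.51, adjusted p = 0.0617, 0.0985 and 0.107).

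A second set of genes differed by large amounts in the later weeks too. Klk1b22, a kallikrein protease of a family of near-identical copies whose members the array may not tell apart, was at 4.91, 5.20, 5.01 and 6.22 in A/J and 10.87, 10.55, 10.52 and 10.76 in C3H. It was 40.5-fold lower in A/J on this scale (-5.34 ± 0.24, adjusted p = 2.84e-06), and the difference was -6.08 with a pseudocount of 1. Bst1, an ectoenzyme of bone marrow stroma and myeloid cells, was at 5.97, 6.36, 6.39 and 7.01 in A/J and 10.42, 10.37, 10.51 and 10.52 in C3H (-4.02 ± 0.14, adjusted p = 1.03e-06). Dysf, the membrane repair protein of which A/J is known to carry a loss variant, was at 6.19, 6.34, 6.34 and 6.93 in A/J and 9.49, 9.51, 9.46 and 9.57 in C3H (-3.06 ± 0.12, adjusted p = 1.96e-06). Alkal1, a ligand of the receptor tyrosine kinases ALK and LTK, was at 7.33, 7.51, 7.12 and 7.31 in A/J and 10.21, 10.01, 9.94 and 10.05 in C3H (-2.74 ± 0.08, adjusted p = 1.77e-07). In each of these 4 genes every A/J array lay below the level of 7.54 used as filter on mean level, so the genes were tested through their C3H values, and the sizes of the differences depend on the constant added to the intensity. Their differences at weeks 6 to 12 were -5.13, -4.09, -2.65 and -2.81. Other genes lower in A/J by a large margin were the transporter Abca17 (-2.28), the zinc finger gene Zfp605 (-2.08), the Polycomb-type gene Sfmbt2 (-1.92), the protease-activated receptor F2rl2 (-1.73), Fam107a (-1.71) and Nme7 of the nucleoside diphosphate kinase family (-1.70). In A/J all values of Abca17, Zfp605 and Sfmbt2 and 3 of 4 values of F2rl2 lay below 7.54 as well. For these 6 the limma adjusted p was at most 0.000397.

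Among the genes higher in A/J, Nptx1, a secreted pentraxin best known from neurons, was at 9.98, 10.19, 9.93 and 10.27 in A/J and 6.78, 7.32, 7.49 and 7.57 in C3H (2.81 ± 0.14, adjusted p = 4.78e-06). In 3 of the 4 C3H arrays it lay below 7.54, as did Nppa and Snora33, so the sizes of these differences likewise depend on the constant added. H2-T10, a nonclassical MHC class I gene with close paralogs, was at 10.90, 10.44, 10.81 and 10.64 in A/J and 8.33, 8.53, 8.74 and 8.56 in C3H (2.16 ± 0.10, adjusted p = 4.44e-06). Nppa, the atrial natriuretic peptide, was at 9.12, 9.37, 9.11 and 9.36 in A/J and 7.12, 7.88, 7.36 and 7.48 in C3H (1.78 ± 0.15, adjusted p = 7.25e-05). These groups were well apart, and the later differences were 2.96, 2.79 and 3.08. The complement gene C4b was at 10.97, 11.08, 11.36 and 11.66 in A/J and 9.55, 9.70, 9.63 and 9.50 in C3H (1.67 ± 0.12, adjusted p = 3.12e-05), and its near-identical neighbour C4a, whose probes may share its signal, differed by 1.45 (adjusted p = 0.000365). Snora33, a small nucleolar RNA, was at 7.94, 8.38, 9.49 and 10.19 in A/J and 6.79, 7.16, 7.71 and 7.22 in C3H (1.78, adjusted p = 0.00135), with its highest values in the A/J arrays of week 3.

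**Figure D3:**
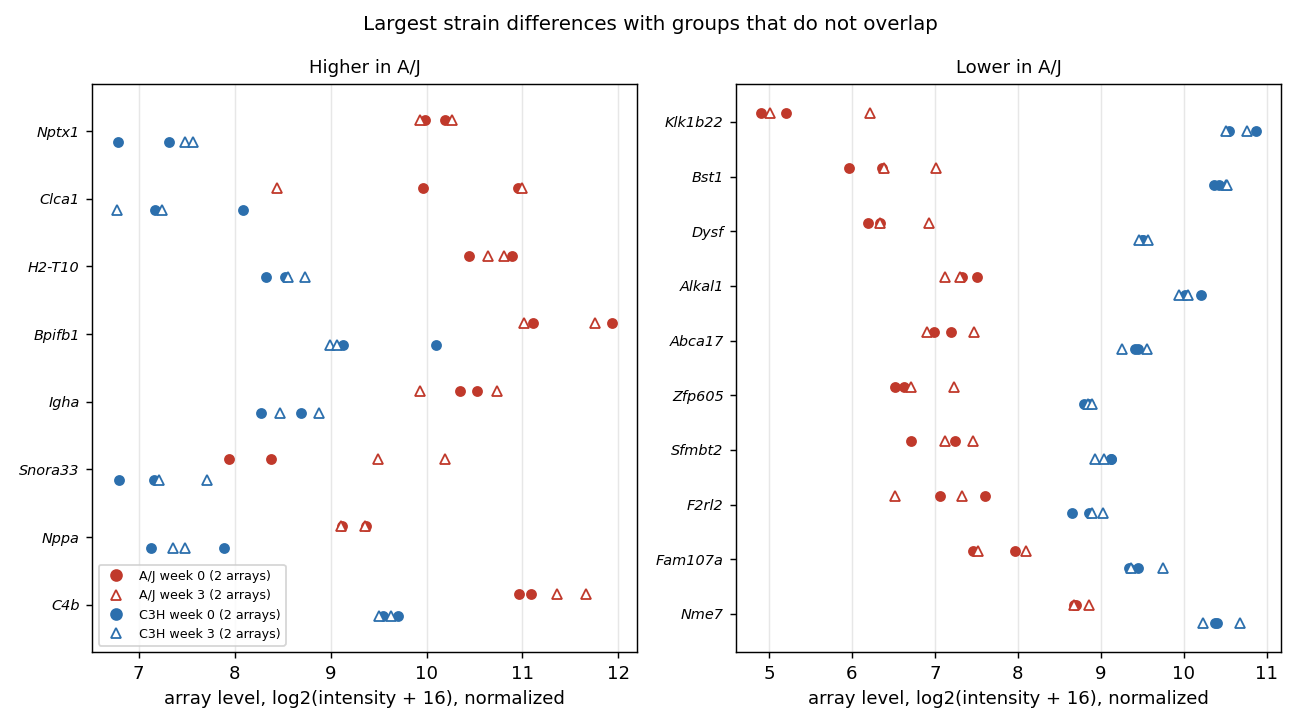
Selected genes with large called strain differences whose groups did not overlap, shown as levels (log2 of intensity plus 16). Each array is a point, with A/J above C3H. For Klk1b22, Bst1, Dysf and Alkal1 all A/J points lie at 7.51 or lower and all C3H points at 9.46 or higher.

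Genes with published loss or functional variants in either strain were read as a check of the labels. Besides Dysf, Hc, the complement component C5 that A/J is known to lack as a protein, was at 11.73, 11.73, 11.87 and 11.76 in A/J and 12.30, 12.27, 12.15 and 12.23 in C3H (-0.46 ± 0.06, adjusted p = 0.00084). Its transcript was thus lower but far above background in A/J, and the difference was larger at weeks 6 to 12, at -1.16 (0.69 early minus later, adjusted p = 7.4e-05). Naip5 and Naip2, sensors of bacterial flagellin and secretion systems, differed by -0.48 and -0.50 (adjusted p = 0.000633 and 0.00027). Tlr4, the lipopolysaccharide receptor that carries a missense variant in some C3H substrains, was higher in A/J by 0.35 (adjusted p = 0.00758). Pde6b, known for a retinal degeneration allele in C3H, was between 6.03 and 6.74 and below the filter. Of the 11 tested genes of the chromosome 6 interval linked to lung tumour susceptibility in A/J, 2 were higher and 2 lower. Of all tested genes, 6.15% were higher and 20.5% lower. Among the lower ones of the interval was the clock gene Bhlhe41 (-1.44), whose difference at weeks 6 to 12 was 0.04. Lrmp was higher by 0.43 (adjusted p = 0.00583), while Casc1, a candidate gene of this interval, was at 7.72, 7.75, 7.80 and 8.28 in A/J and 7.66, 7.75, 7.94 and 7.77 in C3H and was not called (0.11 ± 0.10, adjusted p = 0.462).

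Secretory airway genes were higher in A/J. Of 16 tested goblet and secretory cell genes, 9 were higher and 1 lower (median 0.51), against 6.15% of all tested genes called higher. The mean level of the list was 9.917, 10.34, 9.757 and 10.44 in A/J and 9.324, 9.711, 9.278 and 9.276 in C3H, so its spread within A/J was wide and C3H week 0 array 2 lay near the lowest A/J array. Clca1, a secreted regulator of mucus in goblet cells, was at 9.96, 10.95, 8.45 and 10.99 in A/J and 7.17, 8.09, 6.78 and 7.25 in C3H (2.77 ± 0.47, adjusted p = 0.00312). The groups did not overlap, but they were close. At weeks 6 to 12 Clca1 was between 6.99 and 7.64 in A/J and between 7.23 and 9.37 in C3H. This made an early minus later difference of 3.19 ± 0.55 (limma adjusted p = 0.0113). Of the C3H arrays of weeks 0 and 3, only week 0 array 2 lay above the filter level of 7.54. The sizes of both differences of Clca1 therefore depend on the constant added to the intensity. Bpifb1, a secreted airway protein of the BPI fold family, was at 11.11, 11.93, 11.01 and 11.76 in A/J and 9.13, 10.10, 8.99 and 9.06 in C3H (2.13 ± 0.25, adjusted p = 0.000513), and its later difference was 1.91. Muc5b, the gel-forming mucin of the airways, was at 11.05, 11.61, 10.69 and 11.19 in A/J and 9.70, 10.27, 9.75 and 9.50 in C3H (1.33 ± 0.17, adjusted p = 0.000653). Pigr, which carries dimeric IgA across the epithelium, was at 9.998, 10.20, 10.42 and 10.63 in A/J and 9.07, 9.22, 9.29 and 9.19 in C3H (1.12 ± 0.09, adjusted p = 7.25e-05). Of these 4 genes, Pigr had the tightest groups, while Clca1, Bpifb1 and Muc5b all had their highest C3H value in week 0 array 2.

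Of 15 club cell genes tested, 7 were higher in A/J and 0 lower (median 0.23), against 6.15% and 20.5% of all tested genes. Scgb3a2, a secretoglobin, was at 11.95, 12.05, 11.86 and 11.90 in A/J and 11.15, 11.31, 11.40 and 11.47 in C3H (0.61 ± 0.08, adjusted p = 0.00084), and the stress-induced regulator Nupr1 was at 11.46, 11.37, 11.90 and 12.03 in A/J and 10.64, 10.65, 10.88 and 10.81 in C3H (0.94 ± 0.08, adjusted p = 0.000101). The xenobiotic enzymes Cyp4b1 and Aldh1a7 differed by 0.34 and 0.29 (adjusted p = 0.00528 and 0.00858). Of 29 ciliated cell genes, 12 were higher and 2 lower (median 0.22), a count of higher members that was 7 without A/J week 0 array 2, 6 without C3H week 0 array 1, 5 without C3H week 3 array 2 and 22 after centring. Dynlrb2, a dynein light chain, differed by 0.58 (adjusted p = 0.00156), Ccdc39, a ruler of the axoneme, by 0.49 (adjusted p = 0.000853) and the axonemal dynein Dnah12 by 0.42 (adjusted p = 0.00323). Sntn, a protein of the tip of cilia, went the other way, at 9.41, 9.45, 9.60 and 9.66 in A/J and 9.95, 9.87, 10.29 and 10.12 in C3H (-0.53 ± 0.06, adjusted p = 0.000453). Of 16 alveolar type 1 genes, 1 was higher and 1 lower (Akap5 0.71, Spock2 -0.31). Of 20 alveolar type 2 genes, 1 was higher and 3 lower, among them Sftpd (0.23) and Lyz1 (-0.42), against 26.6% of all tested genes called in either direction. The alveolar type 2 counts were 5 higher and 2 lower after centring, 3 higher without A/J week 3 array 1 and 2 higher without A/J week 0 array 1, and 2 higher and 10 lower at weeks 6 to 12.

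B and plasma cell genes were higher in A/J, with 12 of 19 called higher and 1 lower (median 0.44), against 6.15% and 20.5% of all tested genes. At weeks 6 to 12, 5 of the list were higher and 2 lower (median 0.06), against 17.7% and 26.5% of all tested genes. Igha, the constant region of IgA, was at 10.35, 10.52, 10.73 and 9.93 in A/J and 8.28, 8.70, 8.88 and 8.47 in C3H (1.80 ± 0.17, adjusted p = 0.000185), and its early minus later difference was not called (1.18, adjusted p = 0.186). Igha is not a member of that list. Fcer2a, the low-affinity IgE receptor, was at 9.90, 9.30, 10.11 and 9.89 in A/J and 8.85, 8.93, 9.09 and 9.03 in C3H (0.83 ± 0.12, adjusted p = 0.00142). Bank1, a B-cell scaffold, differed by 0.73 (adjusted p = 0.000653), the complement receptor Cr2 by 0.69 (adjusted p = 0.000501) and the B-lineage factor Pax5 by 0.68 (adjusted p = 0.00285). Within A/J, week 0 array 2 was the lowest of the 4 for Fcer2a, Bank1, Cr2 and Pax5. In these genes it still lay above every C3H array. The mean level of the B and plasma cell list was 9.244, 9.01, 9.563 and 9.603 in A/J. In C3H it was 8.776, 8.873, 9.197 and 9.014. By this mean the groups overlapped, and A/J week 0 array 2 lay below both C3H arrays of week 3. Single immunoglobulin light chain segments varied from array to array, with Igkv4-91 at 6.97, 9.07, 7.81 and 8.32 in A/J and 8.58, 8.12, 11.04 and 9.71 in C3H, a difference that was not called (-1.32 ± 0.53, adjusted p = 0.0904). Other segments picked by the naming rule were called higher in A/J, among them Igkv19-93, whose call was lost in 5 alternatives.

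T and NK cell genes went the other way, with 10 of 23 lower and 2 higher (median -0.22). The lists of this paragraph are read against the 20.5% of all tested genes called lower and the 6.15% called higher. At weeks 6 to 12, 7 T and NK cell genes were lower and 5 higher (median -0.002), against 26.5% and 17.7% of all tested genes. Gzma, a granzyme of cytotoxic cells, was at 8.46, 7.26, 8.30 and 7.78 in A/J and 9.35, 9.41, 9.90 and 9.79 in C3H (-1.66 ± 0.22, adjusted p = 0.00091). Nkg7, a granule protein, was at 9.28, 9.16, 9.52 and 9.24 in A/J and 9.82, 9.92, 10.28 and 10.11 in C3H (-0.73 ± 0.08, adjusted p = 0.000338), and the pore-forming protein Prf1 differed by -0.63 (adjusted p = 0.00423). Of 16 alveolar macrophage genes, 12 were lower in A/J and 1 higher (median -0.45), and 11 were lower after centring. Their mean level was 9.756, 9.728, 9.683 and 9.819 in A/J and 10.06, 10.08, 10.16 and 10.15 in C3H. Pparg, the nuclear receptor that sets alveolar macrophage identity, was at 9.69, 9.78, 9.80 and 9.74 in A/J and 10.26, 10.35, 10.41 and 10.39 in C3H (-0.60 ± 0.06, adjusted p = 0.000148), and the proton pump subunit Atp6v0d2 was at 10.70, 10.62, 10.29 and 10.27 in A/J and 11.19, 11.15, 11.25 and 11.26 in C3H (-0.74 ± 0.09, adjusted p = 0.000587). Neither pair of groups overlapped. Cd200r4 and Krt79 of the same list differed by -0.72 and -0.47. Of 15 monocyte and interstitial macrophage genes, 3 were lower and 1 higher (median -0.03), which is near the share of all tested genes. The macrophage marker Cd68 differed by -0.64 and the Fc receptor Fcgr4 by -1.01 (adjusted p = 0.00137 and 0.00101), and the chemokine receptor Ccr2 was higher by 0.24 (adjusted p = 0.0371), a call that was lost without either array 1 of A/J, without either C3H array of week 0 or without C3H week 3 array 2. Neutrophil genes were mixed, with 2 of 14 higher and 2 lower, and 5 lower without A/J week 3 array 2: Retnlg, a neutrophil cytokine, differed by -1.27 (adjusted p = 0.00121) and Hdc, the histamine-forming enzyme, by 0.95 (adjusted p = 0.000111). Of 6 eosinophil and mast cell genes 1 was higher, the mast cell protease Cpa3 (0.96, adjusted p = 0.00109), and 2 were lower, the eosinophil and alveolar macrophage lectin Siglecf (-0.38, adjusted p = 0.0055) and the stem cell factor receptor Kit (-0.22, adjusted p = 0.0271). The call of Kit was lost without any 1 of 6 arrays and after centring.

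Interferon-stimulated genes had 12 of 24 lower in A/J and 0 higher (median -0.28). Of all tested genes, 20.5% were lower and 6.15% higher, which applies to the MHC lists below as well. Oas2, an oligoadenylate synthetase of antiviral defence, was at 8.50, 8.53, 8.48 and 8.64 in A/J and 9.52, 9.90, 10.01 and 10.02 in C3H (-1.33 ± 0.09, adjusted p = 3.12e-05), and its relatives Oas1a and Oas3 differed by -0.83 and -0.53. Ifit3, an antiviral binding protein, was at 10.78, 10.78, 10.73 and 10.49 in A/J and 11.60, 11.68, 11.90 and 11.62 in C3H (-1.01 ± 0.09, adjusted p = 0.000119). In the later weeks 13 of the 24 were lower and 5 higher, against 26.5% and 17.7% of all tested genes. Of 10 MHC class II genes 7 were lower in A/J, a count that was 3 after centring, and H2-Eb1, which presents antigen to helper T cells, was at 11.23, 11.18, 11.27 and 11.22 in A/J and 11.54, 11.79, 11.72 and 11.65 in C3H (-0.45 ± 0.07, adjusted p = 0.00157). H2-DMa, which loads peptides onto class II, differed by -0.47 (adjusted p = 0.00488), and the calls of H2-Ab1 (-0.32) and H2-Aa (-0.26) were lost after centring. Of 19 MHC class I and peptide loading genes, 8 were higher and 1 lower, and the higher ones were 2 without A/J week 0 array 1, without C3H week 0 array 1 or without C3H week 3 array 2, 4 without C3H week 3 array 1, and 5 without A/J week 3 array 1 or without C3H week 0 array 2. Among them H2-Q10 differed by 0.36 and the immunoproteasome subunit Psmb10 by 0.33 (adjusted p = 0.00533 and 0.0231), and H2-T24 was lower by -0.29 (adjusted p = 0.00747). As background, A/J carries the H2a and C3H the H2k haplotype, which share their class II alleles and differ at the D end.

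**Figure D4:**
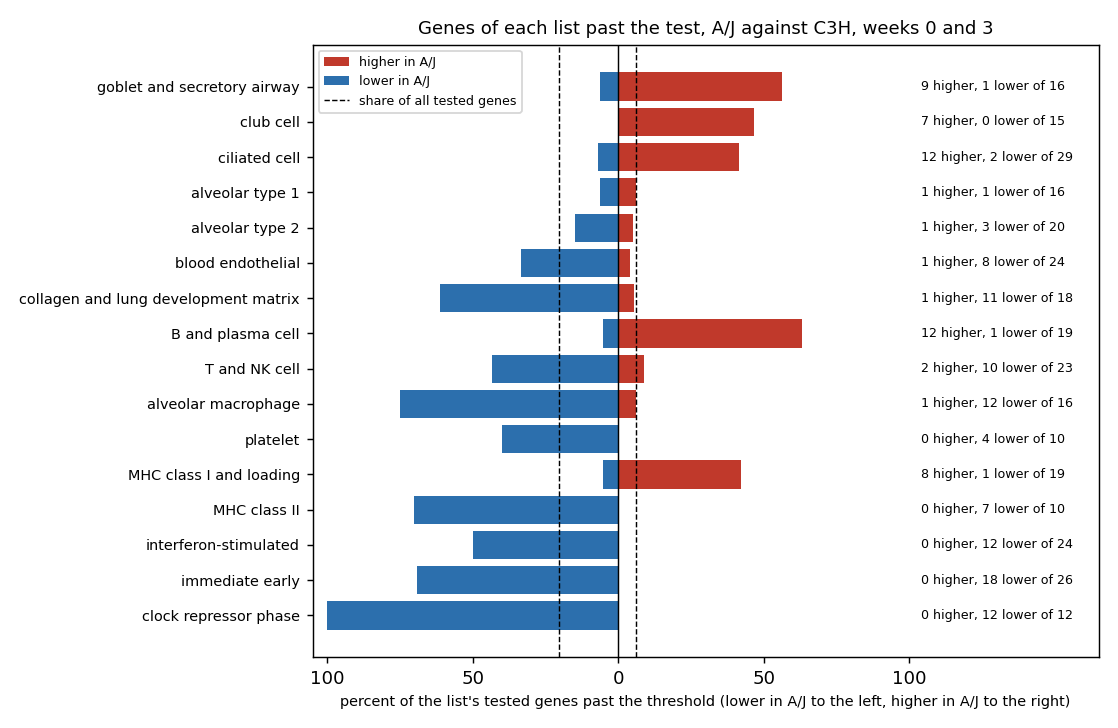
Share of the tested members of each gene list (percent) called higher in A/J, drawn to the right, and lower in A/J, drawn to the left, with dashed lines at the shares of all tested genes. The repressor-phase clock genes are lower in 12 of 12, and alveolar macrophage genes in 12 of 16, while B and plasma cell genes are higher in 12 of 19.

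Vascular and matrix lists are read against the 20.5% of all tested genes that were lower and the 6.15% that were higher. Blood endothelial genes had 8 of 24 lower and 1 higher, but 4 were lower after centring on the tested genes, and the lower ones were 4 without A/J week 0 array 1 or without C3H week 0 array 1, and 5 without A/J week 0 array 2, A/J week 3 array 1, C3H week 3 array 1 or C3H week 3 array 2. Of 10 platelet genes 4 were lower and 0 higher: Ppbp, a platelet chemokine, was at 9.56, 9.72, 10.11 and 10.20 in A/J and 10.54, 10.70, 11.29 and 11.33 in C3H (-1.07 ± 0.07, adjusted p = 1.9e-05), and the von Willebrand receptor subunit Gp9 differed by -0.66 (adjusted p = 0.000516). The week 3 values of Ppbp lay above its week 0 values in both strains, though no gene was called between the weeks, and its strain difference was -0.98 at week 0 and -1.16 at week 3. Vwf, the endothelial and platelet adhesion protein, was at 10.98, 11.05, 11.01 and 11.20 in A/J and 11.68, 11.82, 11.63 and 11.71 in C3H (-0.64 ± 0.07, adjusted p = 0.000329). Procr, the endothelial protein C receptor, differed by -1.56, Cd59a, an inhibitor of the complement membrane attack complex, by -1.02, and Mmrn1 of lymphatic endothelium by -0.55 (adjusted p = 0.000462, 0.000185 and 0.00194). Of 18 collagen and matrix genes of lung development, 11 were lower and 1 higher (median -0.26), and 8 were lower after centring, while of 21 fibroblast and matrix genes 5 were lower and 1 higher. Col4a6, a basement membrane collagen chain, was at 7.31, 7.12, 7.22 and 7.003 in A/J and 8.15, 8.29, 8.15 and 8.16 in C3H (-1.03 ± 0.07, adjusted p = 2.84e-05), and Fbln5, which organises elastic fibres, was at 11.28, 11.30, 11.27 and 11.30 in A/J and 11.66, 11.74, 11.68 and 11.69 in C3H (-0.40 ± 0.05, adjusted p = 0.000784). Every A/J value of Col4a6 lay below the filter level of 7.54, so it was tested through its C3H values. The size of its difference depends on the constant added to the intensity. Tenascin N (Tnn) differed by -1.02 and the microfibril protein Mfap5 by -0.70. Eln, elastin itself, was the 1 higher member, at 10.60, 10.75, 10.71 and 10.94 in A/J and 10.61, 10.46, 9.90 and 10.01 in C3H, with overlapping groups and a gap only at week 3 (0.51 ± 0.14, adjusted p = 0.0228). The imprinted growth gene Mest was lower in every A/J array, at 10.07, 10.11, 9.98 and 9.89 in A/J and 10.94, 10.96, 10.78 and 10.75 in C3H (-0.85 ± 0.05, adjusted p = 1.67e-05).

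Enzymes that handle xenobiotics had calls in both directions: 5 higher and 4 lower of 26 cytochrome P450 genes, 5 and 3 of 27 carbonyl-handling enzymes, and 4 and 2 of 21 glutathione transferases. Of all tested genes, 6.15% were called higher and 20.5% lower, or 26.6% in either direction. The lower P450 genes were 2 without C3H week 0 array 2, and the lower carbonyl-handling genes 1 without A/J week 3 array 1 or without either C3H array of week 3, and 6 without A/J week 3 array 2. Cyp1a1, the P450 induced through the aryl hydrocarbon receptor, was at 8.93, 9.82, 9.13 and 9.23 in A/J and 7.64, 7.65, 7.91 and 7.63 in C3H (1.57 ± 0.17, adjusted p = 0.000271), and A/J week 0 array 2 was the highest. Cyp2e1, which oxidises small solvents and nitrosamines, was at 8.96, 9.00, 8.93 and 9.29 in A/J and 9.85, 9.89, 10.28 and 10.16 in C3H (-1.001 ± 0.09, adjusted p = 0.000105). Cyp2f2, a club cell P450, was not called (-0.04, adjusted p = 0.7), and Cyp4f15 differed by 0.51 (adjusted p = 0.000633). Cyp2a5 was not analysed here. The aldo-keto reductases Akr1c14 and Akr1e1 were higher in A/J by 0.99 and 0.80 (adjusted p = 0.000165 and 8.51e-05), and Aox1, an aldehyde oxidase, by 0.31. Hsd11b1, which reduces glucocorticoids and also the ketone of NNK, differed by -0.30 (adjusted p = 0.0332), with overlapping groups and a call that was lost in 6 alternatives. Gclc, the rate-limiting enzyme of glutathione synthesis, was at 11.51, 11.60, 11.62 and 11.66 in A/J and 11.08, 11.10, 11.17 and 11.13 in C3H (0.48 ± 0.05, adjusted p = 0.000329), and the glutathione transferases Gstm6 and Mgst2 differed by 0.86 and 0.50. Among repair genes for alkylated and oxidised bases, Alkbh3, a DNA demethylase, was higher by 0.49 (adjusted p = 0.000803), and Xrcc1, Polb and Mutyh of base excision repair were lower by -0.36, -0.30 and -0.28 (adjusted p = 0.00563, 0.00536 and 0.00425). Mgmt, which removes alkyl groups from guanine, was not called (0.07, adjusted p = 0.581).

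Several genes were set by single arrays. In A/J week 0 array 2, genes of squamous epithelium and skeletal muscle were among those raised. Lor, which encodes the cornified envelope protein loricrin, was at 6.91, 13.65, 7.01 and 7.22 in A/J and 7.16, 7.11, 7.26 and 7.08 in C3H. Krt4, a keratin of the oesophagus and other wet squamous surfaces, was at 6.40, 13.90, 6.38 and 6.56 in A/J and 6.49, 6.35, 6.67 and 6.85 in C3H, and its partner keratin Krt13 reached 10.66 in that array, with the other 7 between 6.87 and 7.58. Acta1, skeletal muscle actin, was at 9.78, 14.31, 9.69 and 9.26 in A/J and 9.72, 9.78, 9.63 and 9.55 in C3H, and the fast myosin light chain Myl1 reached 11.49 there, with the others between 7.06 and 7.80. In all of these the array lay far above its partner of the same week. Lor and Acta1 were not called between the strains (adjusted p = 0.366 and 0.357), and Krt4, Krt13 and Myl1 fell below the filter on mean level. Krt1 and Krt10, the keratins of epidermis, were not raised there: Krt1 was at 9.39, 9.27, 9.53 and 9.43 in A/J and 9.50, 9.45, 9.72 and 9.33 in C3H, and Krt10 at 8.32, 8.10, 8.42 and 8.68 in A/J and 8.37, 8.22, 8.54 and 8.34 in C3H. Other cornified genes were raised in the array, with Krtdap, a keratinocyte differentiation protein, at 12.35 (the other 7 between 6.63 and 6.99), the late envelope gene Lce1e at 12.29 (the others between 8.25 and 8.61) and the proline-rich Kprp at 10.85 (the others between 7.36 and 7.80). The mean level of the cornified list was 8.054, 9.324, 8.03 and 7.93 in A/J and 7.987, 8.008, 8.018 and 7.981 in C3H. At week 6 both A/J arrays had Krt1 at 14.37 and 14.77 and Krt10 at 11.54 and 12.10, while Krt4 lay between 6.31 and 6.97 in the later A/J arrays. Of 19 skeletal muscle genes tested, 0 were called between the strains by limma, and 8 were called lower without both A/J arrays numbered 2, an alternative added after seeing the data.

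A/J week 3 array 2 stood apart by other genes. Saa3, an acute phase apolipoprotein, was at 7.45, 7.30, 7.63 and 12.32 in A/J and 7.395, 7.10, 7.61 and 7.50 in C3H, and Prg4, a lubricant of serous surfaces, reached 11.30 there, with the other 7 arrays between 6.58 and 7.72. The mesothelial genes Msln, Lrrn4 and Wt1 reached 10.86, 11.34 and 9.65 in that array, and the mean of the mesothelial list was 9.854, 9.832, 10.06 and 11.07 in A/J and 10.08, 10.1, 9.8 and 9.914 in C3H. Atrial myosin genes were also highest there, with Myl7 at 11.37, 11.44, 11.39 and 12.03 in A/J and 10.61, 11.10, 10.99 and 10.77 in C3H (0.69 ± 0.15, adjusted p = 0.00982). None of Saa3, Prg4, Msln, Lrrn4 and Wt1 was called between the strains.

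The opposite pattern, 3 high A/J arrays and 1 at the C3H level, was shown by 7 tested genes with a gap of at least 2-fold. Zfp640, a zinc finger gene, was at 12.62, 12.78, 12.42 and 7.35 in A/J and 7.70, 7.55, 7.59 and 7.60 in C3H, and 3 probe sets carried its name. Its difference was called (3.68 ± 0.93, adjusted p = 0.0176) although A/J week 3 array 2 lay below every C3H array, and the call was lost in 5 alternatives. At weeks 6 to 12 the A/J arrays ranged between 7.386 and 11.71, with only 2 arrays above 10, and the C3H arrays between 7.242 and 7.547. The olfactory receptor genes Olfr1184 and Olfr1138 were at 11.89, 11.80, 10.98 and 7.04 and at 10.47, 10.34, 9.74 and 7.11 in A/J, against 9.00, 7.15, 7.02 and 7.01 and 7.38, 7.14, 7.21 and 7.26 in C3H. The vomeronasal pseudogene Vmn2r-ps104 was at 11.30, 11.31, 10.98 and 8.47 in A/J and 8.99, 8.74, 8.17 and 8.11 in C3H. The miRNA loci Mir680-2, on chromosome X, and Mir680-1, on chromosome 6, had 11.71, 11.77, 11.52 and 9.50 and 12.14, 10.54, 12.30 and 9.03 in A/J, against 9.89, 9.70, 8.44 and 8.51 and 9.26, 9.38, 8.71 and 8.57 in C3H. The same 3 A/J arrays were high in each of these 6 genes, and the probes of such multicopy families may share signal. The mature miRNA of both loci has 1 sequence in RefSeq (GRCm38.p6, chr6:129691541-129691561 and chrX:144297790-144297810, both +), shown with its seed, bases 2 to 8, in capitals because the 2 loci cannot be told apart by it.
miR-680: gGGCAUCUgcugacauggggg

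**Figure D5:**
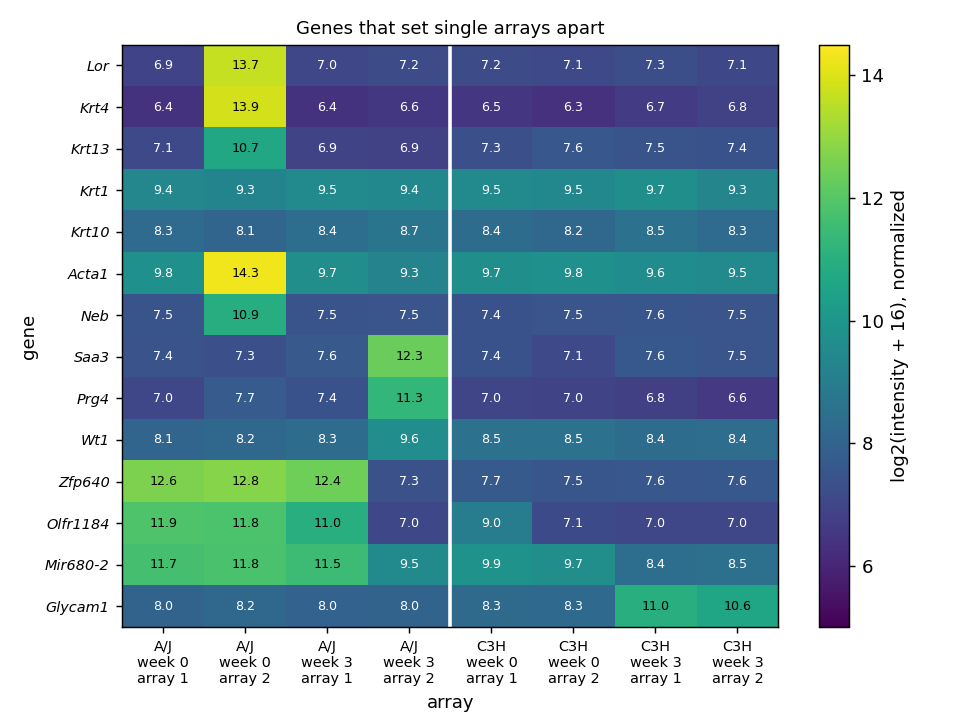
Levels (log2 of intensity plus 16) of genes that stand apart in single arrays, as a heat map with 1 column per array, A/J left of C3H. Lor, Krt4 and Acta1 are raised in A/J week 0 array 2 alone, Saa3 and Prg4 in A/J week 3 array 2 alone, and Zfp640 in the other 3 A/J arrays.

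With each week taken separately, the strains differed in 1242 genes at week 0 (8.31%), 272 higher in A/J (1.82%) and 970 lower (6.49%), and in 1419 at week 3 (9.49%), with 2.62% of all tested genes higher and 1027 lower (6.87%). Leaving out 1 array moved these counts to between 140 and 3125 and to between 186 and 3172, and every array omitted moved the first by more than 1.5 times. A fit of all 36 arrays gave 3420 and 3434. In limma, 0 genes were called between the weeks (1891 at an unadjusted p under 0.05). Besides Dbp, the interaction of strain and week was called for Glycam1, a mucin-like ligand of lymphocyte homing receptors, at 8.01, 8.22, 7.98 and 8.03 in A/J and 8.30, 8.26, 10.99 and 10.59 in C3H (-2.62 ± 0.19, adjusted p = 0.00553). Only the C3H arrays of week 3 were raised. Later, at weeks 6 to 12, Glycam1 was between 8.08 and 8.45 in A/J and between 8.07 and 12.19 in C3H.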

How the data were processed

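Total RNA of mouse lung was labelled with biotin and hybridised to Affymetrix arrays, per the labels' protocols. The deposited values are linear intensity per probe set, which the authors obtained with PLIER and Expression Console according to names in the submitters' processing notes; their settings, versions and annotation build are not given in the sources used here. Array number, not depth, limits the precision. The deposited table holds 35556 probe sets, of which 21789 have 1 gene symbol in GEO's platform annotation, 1621 several and 12146 are not listed with one. The RefSeq table of GRCm38.p6 held 21698 of those with a symbol, and 0 symbols changed. The deposited intensity was used as log2(intensity + 16), quantile-normalized over the 36 arrays. Where several probe sets shared a symbol, the brightest by mean over the 36 arrays stood for the gene, which gave 19938 genes, and those under the 25th percentile of mean level (7.544) were not tested, which left 14953. Whether probes overlap sequence differences between the strains was not tested.

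Strain differences and the week difference were fitted with limma's lmFit and eBayes (limma 3.58.1, R 4.3.3) on the 8 arrays with strain and week as terms. The interaction and each week came from a fit with 4 group means, and the early minus later difference from a fit of the 20 untreated arrays. The fit was tested on simulated data. Figures were drawn with matplotlib 3.10.9 in Python 3.11.15. The labels do not say whether replicate numbers pair the arrays, and the main fits took the arrays as unpaired. The 6 correlations of deviations between groups ranged between -0.215 and 0.424. They cannot decide the question, since each group gives a single deviation per gene. Genes were named by a rule: the 14 largest called differences each way with the same sign in both weeks; up to 4 members with the smallest p of each of the 55 lists (955 members) that had at least 2 called; all measured clock genes; the 6 cornified, skeletal and cardiac muscle members that stood highest in any array; the 5 largest called each way of the interaction and of the early minus later difference; and Hc, Dysf, Pde6b, Tlr4, Naip5, Casc1, Cyp2f2, Hsd11b1, Mgmt and Saa3. Other genes given, such as Krt4, Krt13 and further genes that stood apart in single arrays, were chosen after their values were seen. The arrays compared, the gene lists and the rule were chosen with earlier results of these data known.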

Additional observations from a re-analysis of the deposited data

Results flagged for a closer look

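Of 362 groups of 4 arrays, 4 A/J and 4 C3H arrays for each of the 181 genes given in the text, 36 held an array whose distance to the nearest other, as a share of the group's range, exceeded Dixon's critical value for 4 samples, and chance gives about 1 in 20 groups. Many of these genes were chosen because they stood high in 1 array, so the count describes them and is no test against chance. A/J week 0 array 2 held 16 of these values, A/J week 3 array 2 held 12, and the C3H arrays 8. In A/J week 0 array 2 the squamous genes Lor (13.65), Krtdap (12.35), Lce1e (12.29), Kprp (10.85), Dsc3 (9.52), Krt4 (13.90), Krt13 (10.66), Sprr3 (10.84), Crct1 (13.45) and Tgm3 (11.85) and the skeletal muscle genes Acta1 (14.31), Myl1 (11.49), Neb (10.93), Ckm (11.46), Atp2a1 (10.33) and Myot (9.39) stood above the other 3 A/J arrays, as levels on the log2 scale. In A/J week 3 array 2 the acute phase gene Saa3 (12.32), the serosal genes Prg4 (11.30) and Wt1 (9.65), the cardiac genes Myl7 (12.03) and Myh6 (11.13), and Nr4a2 (9.03), Nme7 (8.86), Insig1 (11.45) and Casc1 (8.28) stood above the others. Zfp640 (7.35), Vmn2r-ps104 (8.47) and Mir680-2 (9.50) stood below the others in that array. Among the C3H arrays, week 0 array 1 was highest for Ciart (10.55) and Olfr1184 (9.00) and lowest for Pax5 (8.34), week 0 array 2 was highest for Bpifb1 (10.10) and Col4a6 (8.29), week 3 array 1 was highest for Cyp1a1 (7.91) and lowest for Kit (11.74) and week 3 array 2 was lowest for Bhlhe40 (10.48).

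The strain difference of weeks 0 and 3 differed from that of weeks 6 to 12 in limma's test of the difference itself for 31 of the 173 genes given in the text that were tested, against 1.41% of all tested genes. Clock genes and the largest differences of this test were chosen for the text, so the share is a description. The early minus later values on the log2 scale were negative for the clock genes Per1 (-1.68), Per2 (-1.10), Per3 (-1.03), Cry1 (-0.34), Cry2 (-0.50), Nr1d1 (-0.58), Nr1d2 (-0.65), Ciart (-1.21), Bhlhe40 (-0.65), Bhlhe41 (-1.48), Dbp (-1.60), Tef (-0.83) and Hlf (-1.18), for the clock outputs Wee1 (-0.41), Usp2 (-0.96) and Tspan4 (-0.82), and positive for Arntl (0.99). Early response genes and miRNA loci were negative as well, with Nr4a1 at -1.74, Nr4a2 at -0.64, Btg2 at -1.25, Mir143 at -1.80 and Mir145a at -1.77. Positive values were found for the goblet gene Clca1 (3.19), the light chain segments Igkv4-91 (3.08) and Igkv19-93 (1.93), the complement gene Hc (0.69), the glutathione enzyme Gclc (0.34), elastin, Eln (0.69), and lymphatic Mmrn1 (0.70). The epidermal keratins Krt1 (-1.67) and Krt10 (-1.18) were negative, with high values in both A/J arrays of week 6. The strain difference of week 3 minus that of week 0 passed its test for Dbp (-1.42) and Glycam1 (-2.62).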

How the results depend on the processing

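Of 203 called named genes, 151 kept their call and direction in every alternative tried, and 52 lost the call in at least 1. The strain difference gave 2589 to 5624 genes when 1 array was left out. The strain by week interaction gave 0 to 108, and 10 without both A/J arrays numbered 2, an alternative added after seeing the data. The strain difference at week 0 gave 778 genes without quantile normalization, 2883 with array weights, 3420 in a fit of all 36 arrays, 140 to 3125 with 1 array left out and 2799 without both. The strain difference at week 3 gave 858 without the filter, 721 with array weights, 3434 in the 36-array fit, 186 to 3172 with 1 array left out and 3988 without both. The week difference gave 3 with the filter at the 50th percentile, 5 with trended moderation, 12 with array weights, 0 to 4 with 1 array left out and 22 without both. The early minus later difference gave 112 with array weights, 78 to 669 with 1 array left out and 556 without both. Without both arrays, Atp2a1 turned to -0.25 (adjusted p = 0.0312) and Kprp to -0.29 (adjusted p = 0.00718), and Wt1 ran between -0.25 (adjusted p = 0.0294, without A/J week 3 replicate 2) and 0.27 with 1 array left out. In these 3 the array left out held the highest value; for the counts the cause was not tested. Replicate number was also tried as a block, though the labels do not say whether it pairs the arrays. The counts were then 4151 for the strain difference, 2 for the interaction, 1493 at week 0 and 1590 at week 3. They were 0 between weeks and 259 for early minus later. With 4 arrays per strain and 2 per week, genes of low intensity and small differences are measured least precisely.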

Other observations

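Genes of cholesterol and fatty acid synthesis tended to be called higher in A/J, with 6 of 20 tested higher and 0 lower (median 0.21), against 6.15% of all tested genes called higher. The higher ones were 4 without A/J week 0 array 2 and 5 without A/J week 3 array 2. Without both of these arrays, 4 were higher and 1 lower (median 0.119). They were 10 higher without A/J week 3 array 1 and 12 after centring on the tested genes. Insig1, which holds the sterol sensor in the endoplasmic reticulum, was at 11.10, 11.09, 11.14 and 11.45 in A/J and 10.74, 10.80, 10.78 and 10.84 in C3H (0.41 ± 0.08, adjusted p = 0.00502 in limma), with A/J week 3 array 2 the highest. Msmo1, a sterol demethylating enzyme, was at 10.09, 10.20, 9.95 and 10.18 in A/J and 9.87, 9.69, 9.81 and 9.66 in C3H (0.34 ± 0.07, adjusted p = 0.0093). Heat shock genes had 5 of 14 lower in A/J and 0 higher (20.5% of all tested genes were lower), and the lower ones were 3 without A/J week 0 array 1 or without C3H week 3 array 2. The small heat shock protein Hspb8 was at 9.90, 10.14, 9.37 and 9.71 in A/J and 10.54, 10.67, 10.73 and 10.70 in C3H (-0.88 ± 0.13, adjusted p = 0.00137), and its partner Bag3 differed by -0.48 (adjusted p = 0.00411). At weeks 6 to 12 these differences were -0.94 and -0.53.

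Cardiac muscle genes, which in mouse lung mark the sleeves of the pulmonary veins and any heart tissue taken along, had 4 higher and 6 lower of 22, against 6.15% higher and 20.5% lower of all tested genes, and 7 higher and 4 lower after centring on the tested genes. The lower ones were 3 without A/J week 0 array 1, C3H week 0 array 2 or C3H week 3 array 1. Myh7, the slow ventricular myosin, was at 10.27, 10.20, 10.29 and 10.17 in A/J and 9.77, 9.79, 9.66 and 9.82 in C3H (0.47 ± 0.06, adjusted p = 0.000789), and Actc1, cardiac actin, was at 11.67, 11.90, 11.45 and 11.90 in A/J and 12.16, 12.41, 12.31 and 12.26 in C3H (-0.56 ± 0.11, adjusted p = 0.00516). The extracellular superoxide dismutase Sod3 was at 11.80, 11.90, 11.63 and 11.83 in A/J and 12.38, 12.45, 12.18 and 12.32 in C3H (-0.54 ± 0.07, adjusted p = 0.000627). Adm, the vasodilator adrenomedullin, was at 8.21, 8.35, 10.17 and 10.80 in A/J and 8.16, 8.26, 8.53 and 8.21 in C3H, with both A/J arrays of week 3 far above the other 6 (1.09 ± 0.35, adjusted p = 0.0456), and its call was lost in 9 alternatives.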
